A study of Mus musculus with 16 samples.

Results

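Bone resorption by osteoclasts was followed through 10 genes in bone and brain of Ali35 mice, a mutant line with a mutation in Shc2. The genes were the acid secretion and matrix digestion genes Tcirg1, Clcn7, Ctsk, Acp5 and Atp6v0d2, the receptor genes Oscar, Itgb3, Tnfrsf11a and Calcr, and the transcription factor gene Nfatc1. Every probe annotated to one of these symbols was taken, which gave 20 of the 25697 probes in the table and 10 of its 16593 named genes. Total RNA had been labelled with biotin and hybridized to one-colour bead arrays, 1 array for each mouse. All mice were of the strain C3H/HeJ, and the 4 groups were wild-type bone and Ali35 bone at 120 days and wild-type brain and Ali35 brain at 3 days, each with 4 arrays. Tissue and age therefore cannot be told apart, and the labels gave neither sex nor batch, nor whether Ali35 mice were heterozygous or homozygous.

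Osteoclasts are large multinucleate cells that form by fusion of monocyte precursors under M-CSF and Rank ligand. They seal a patch of bone through an integrin and actin ring, pump protons into it through a vacuolar proton pump with chloride following through a paired transporter, and digest the exposed matrix with cathepsin K. Rank and co-stimulatory receptors such as Oscar raise calcium, calcineurin then removes phosphate from Nfatc1, and Nfatc1 in the nucleus drives Ctsk, Acp5, Oscar, Itgb3, Calcr and its own gene.

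The table reported background-subtracted intensity on a linear scale, normalized within each tissue. Of all probes, 47.3% reached an intensity of 16 on each bone array and 42.3% on each brain array. Values below 16 were set to 16 before the log2 change was fitted, and a probe was tested in a tissue only if it reached 16 on at least 4 of its 8 arrays. Across probes, arrays of the same bone group correlated at r from 0.977 to 0.991. Ali35 bone replicate 1 stood apart: the probes of Xist, the RNA of the inactive X chromosome, read 221 and 167 there and no higher than 11.7 and 7.17 elsewhere in bone, and the Y-linked gene Eif2s3y read -2.50 against 410 to 686. Several results, though not all, are therefore also given without that array. No probe carried the name Shc2 (0 probes), so the mutated gene was not analysed here.

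As a check on the label of the gene group, osteoclast markers were read in bone. Ctsk, Acp5, Oscar and Mmp9 reached 16 on every bone array, although Mmp9 is also a neutrophil gene. The fusion gene Dcstamp was dim, with a mean intensity of 15.3 ± 6.29 (SD, n = 4) in wild type and 26.0 ± 6.86 (SD, n = 4) in Ali35. Every probe of the defining markers Calcr and Atp6v0d2 stayed below 16 on all 8 bone arrays, which does not show that the genes are silent. In whole bone, a change in the number of osteoclasts and a change in RNA per osteoclast cannot be told apart, and several of these genes are also expressed by other cells.

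Promoters are shown for 3 of the genes that rose in bone and, for contrast, for Ctsk, which was not called. The sequences are the 250 bases before the start site in the RefSeq promoter table (GRCm38.p6), written 5′ to 3′ on the strand of the gene, and capitals mark matches to the motifs named after them. Tcirg1 lies at chr19:3907134-3907383 (minus strand), Clcn7 at chr17:25133141-25133390 (plus strand), Oscar at chr7:3616158-3616407 (minus strand) and Ctsk at chr3:95498960-95499209 (plus strand). The Clcn7 window runs past the listed start of the gene, 25133378, so its last bases, part of its TCACGTG among them, lie within the gene. The Tnfrsf11a window, not printed, also runs past the listed start of its gene, 105780673.
Tcirg1: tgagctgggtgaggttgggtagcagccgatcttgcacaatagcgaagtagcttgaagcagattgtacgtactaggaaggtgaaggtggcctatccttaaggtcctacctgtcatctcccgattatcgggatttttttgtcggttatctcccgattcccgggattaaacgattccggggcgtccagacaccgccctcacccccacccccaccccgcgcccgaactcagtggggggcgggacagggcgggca
Clcn7: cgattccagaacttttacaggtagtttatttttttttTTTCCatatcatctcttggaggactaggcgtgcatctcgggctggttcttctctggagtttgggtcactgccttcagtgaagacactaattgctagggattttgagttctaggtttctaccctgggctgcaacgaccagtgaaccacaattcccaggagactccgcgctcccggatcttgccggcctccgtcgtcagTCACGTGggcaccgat
Oscar: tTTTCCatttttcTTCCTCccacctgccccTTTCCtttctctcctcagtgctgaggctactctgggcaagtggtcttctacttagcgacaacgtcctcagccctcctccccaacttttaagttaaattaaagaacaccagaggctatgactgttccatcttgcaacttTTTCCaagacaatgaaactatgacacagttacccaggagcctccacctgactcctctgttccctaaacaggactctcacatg
Ctsk: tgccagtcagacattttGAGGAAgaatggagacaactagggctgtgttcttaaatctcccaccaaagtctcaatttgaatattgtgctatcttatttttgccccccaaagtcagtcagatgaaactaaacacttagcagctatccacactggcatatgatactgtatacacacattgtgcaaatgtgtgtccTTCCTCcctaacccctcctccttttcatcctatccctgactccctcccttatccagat

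Each motif was searched on both strands, and none of the searched motifs overlapped another in the 4 printed windows. The NFAT core GGAAA occurred 3 times in the Oscar window, starting 249, 220 and 82 bases before the start site, each time on the opposite strand. It occurred 1 time in the Clcn7 window, on the opposite strand, and in 4 of the 7 member windows in the table (Acp5, Calcr, Clcn7 and Oscar), against 55.6% of all 27025 promoters. The PU.1 core GAGGAA occurred in the windows of Ctsk, 2 times, and Oscar, against 23.1% of all promoters. The Mitf motif TCACGTG occurred in the Clcn7 window, against 3.13% of all promoters, while TCATGTG (3.21%) and the AP-1 motif TGANTCA (6.85%) occurred in 0 of the 7. The NF-kB motif, GGG and CC separated by 5 bases of any kind and present in 45.4% of all promoters, occurred in the window of Tnfrsf11a only among the 7. The Tcirg1 window held 0 matches, which says only that these letters are not in those bases. A match describes the letters and is not evidence of binding.

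In bone, Nfatc1, Tcirg1, Clcn7 and Oscar were higher in Ali35 mice by 1.32 to 2.04-fold (the upper end is a dim Nfatc1 probe whose change depends on the floor), while Ctsk and Acp5 were not called. Of the 20 member probes, 9 probes of 6 genes could be tested, and 7 of them, from 4 genes, were called higher and 0 lower (limma, Benjamini-Hochberg adjusted p under 0.05). Over all 12223 probes tested in bone, 24.6% were called, 12.7% higher and 11.9% lower. In 6 of the 9 tested member probes all 4 Ali35 arrays lay above all 4 wild-type arrays, a pattern found in 13.5% of all tested probes; 28.7% of them had groups that did not overlap in either direction. The median log2 change was 0.53 over the 9 probes and -0.04 over all probes. These 9 include 3 probes of Nfatc1 and both tested probes of Tcirg1, and the 6 without overlap came from Nfatc1, Tcirg1 and Clcn7 only. By the brightest tested probe of each gene, 4 of the 6 genes were called higher, against 13.5% of all 8700 genes. With no filter on dim probes, so that all 25697 probes were adjusted together, only 1 member probe, Nfatc1 ILMN_2648704, stayed under the threshold. That setting called 1430 of all probes. Quantile normalization called 7 member probes, within the tissue (3015 of all 12222 probes) or over all 16 arrays (3110 of all 11735). Without Ali35 replicate 1, 5 member probes were called, and 2572 of all 12223. Without any 1 of wild-type replicates 2, 3 and 4 or Ali35 replicate 4, 4 member probes were called, and 1634 to 2636 of all.

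**Figure D1:**
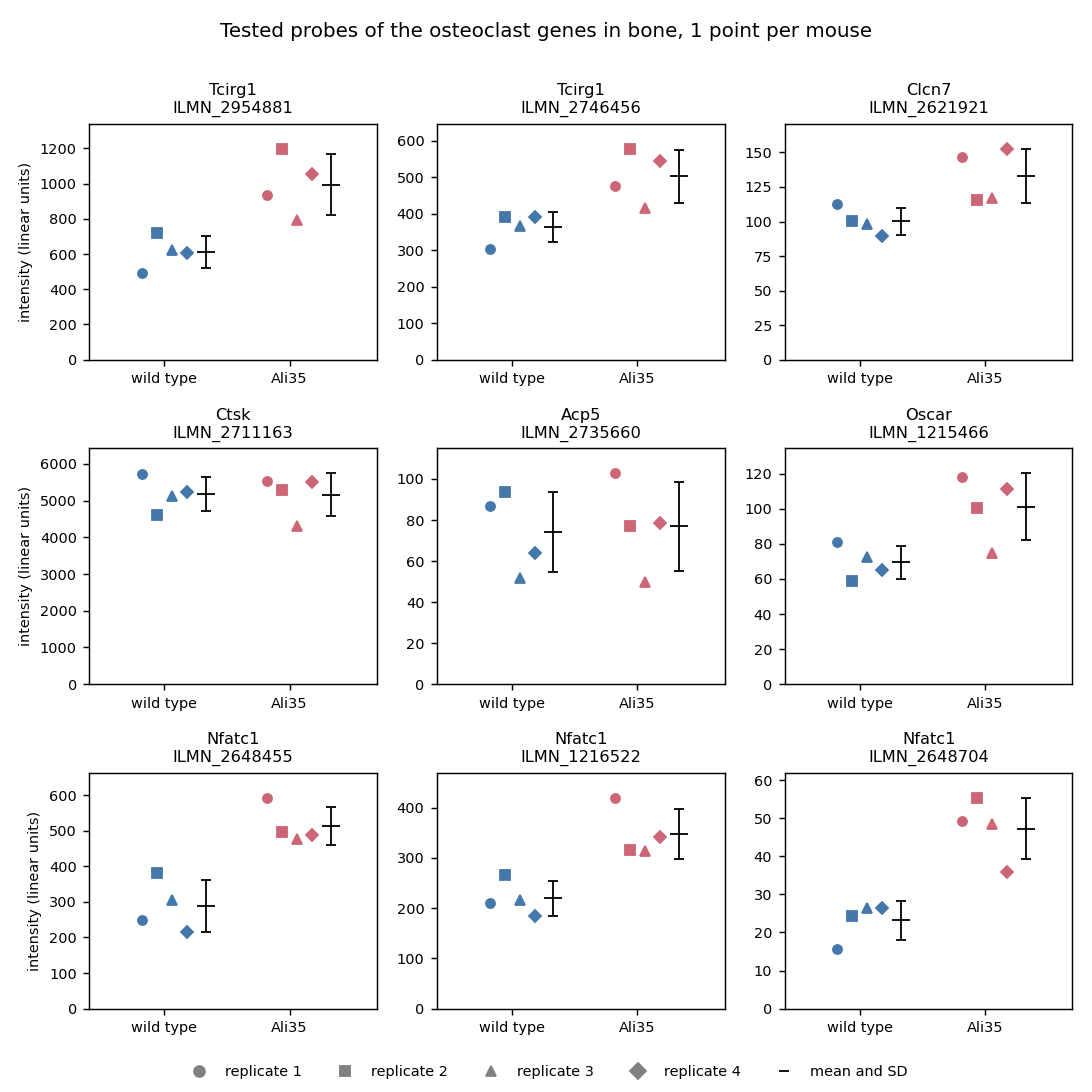
Intensity (linear units, axes from 0) of the 9 member probes tested in bone, 1 point per mouse, with the mean and SD of each group. The 3 Nfatc1 probes, both Tcirg1 probes and Clcn7 show 4 Ali35 arrays above 4 wild-type arrays, Oscar overlaps by 1 Ali35 array, and Ctsk and Acp5 overlap broadly.

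Tcirg1 encodes the a3 subunit that places the proton pump in the ruffled border, and its loss causes osteopetrosis in mice and people. Its probe ILMN_2954881 read 494, 719, 625 and 605 in wild-type replicates 1 to 4 and 936, 1197, 794 and 1052 in Ali35 replicates 1 to 4, an order kept for all values that follow. The groups did not overlap, with wild-type replicate 1 lowest and Ali35 replicate 2 highest. The mean rose from 611 ± 92.2 (SD, n = 4) to 995 ± 171 (SD, n = 4), a log2 change of 0.70 ± 0.16 (SE, limma, adjusted p = 0.0126), and the call held without each array in turn (adjusted p up to 0.0374).

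The Tcirg1 probe ILMN_2746456 gave a smaller rise in the same direction. It read 305, 392, 366 and 390 in wild type and 476, 578, 415 and 545 in Ali35. The groups again did not overlap, and Ali35 replicate 3 lay closest to wild type. Its log2 change was 0.47 ± 0.14 (SE, limma, adjusted p = 0.0332), but the call was lost without any 1 wild-type array, Ali35 replicate 2 or Ali35 replicate 4 (adjusted p up to 0.0922). The remaining Tcirg1 probes, ILMN_2643876 and ILMN_2643879, lay between -4.54 and 5.47 on all bone arrays, so the gene's signal rests on 2 of its 4 annotated probes.

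Clcn7 encodes the chloride-proton exchanger of the ruffled border and of lysosomes in many cells, and its loss also causes osteopetrosis. It read 112, 100, 98.1 and 89.3 in wild type and 147, 115, 117 and 153 in Ali35. The groups did not overlap, although the gap between wild-type replicate 1 and Ali35 replicate 2 was narrow. The mean went from 100.05 ± 9.54 to 133 ± 19.6 (SD, n = 4 each), a log2 change of 0.40 ± 0.13 (SE, limma, adjusted p = 0.0485). This call was near the threshold: it was lost without any 1 wild-type array or Ali35 replicate 1 or 4 (adjusted p up to 0.130, and 0.101 without Ali35 replicate 1). It was also lost with a floor of 8 (adjusted p = 0.0689), a variance trend with robust fitting (0.0523), array weights (0.0749) and a replicate block (0.0740).

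Ctsk encodes cathepsin K, the protease that cleaves bone collagen in the acid compartment. It read 5740, 4603, 5123 and 5230 in wild type and 5539, 5281, 4310 and 5517 in Ali35. The groups overlapped throughout, with the lowest array in Ali35 and the highest in wild type. The means were 5174 ± 466 and 5162 ± 580 (SD, n = 4 each), a log2 change of -0.01 ± 0.12 (SE, limma, adjusted p = 0.976), and the change lay between -0.061 and 0.078 without each array in turn.

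Acp5 encodes the tartrate-resistant acid phosphatase used to stain osteoclasts. It read 86.6, 93.9, 51.8 and 63.9 in wild type and 103, 76.9, 49.6 and 78.8 in Ali35, so each group spanned about the same range. Its log2 change was 0.05 ± 0.25 (SE, limma, adjusted p = 0.901), or -0.10 without Ali35 replicate 1 (limma, adjusted p = 0.783). The SE was wider than for Ctsk, so its change was measured less precisely. Atp6v0d2, the d2 subunit of the pump that also takes part in fusion of osteoclast precursors, lay between -4.03 and 3.00 on all bone arrays and was not tested.

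Among the receptor genes, Oscar alone could be tested. Oscar is a collagen-binding receptor that signals through the ITAM adaptor Fc receptor gamma chain. It read 81.2, 59.0, 72.5 and 65.0 in wild type and 118, 101, 74.8 and 111 in Ali35. Ali35 replicate 3 fell below wild-type replicate 1, and the other Ali35 arrays lay above all wild-type arrays. The mean was 69.4 ± 9.61 in wild type and 101 ± 19.0 in Ali35 (SD, n = 4 each), a log2 change of 0.53 ± 0.16 (SE, limma, adjusted p = 0.0389). The call was lost without any 1 of wild-type replicates 2, 3 and 4 or Ali35 replicates 1, 2 and 4 (adjusted p up to 0.100, and 0.0863 without Ali35 replicate 1), with a floor of 8 (0.0578), with array weights (0.0877) and with a replicate block (0.0506).

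The other receptor genes were at or near background. Itgb3, the beta 3 chain of the vitronectin receptor, read 14.9, 10.9, 11.6 and 10.9 in wild type and 8.99, 21.5, 18.9 and 5.34 in Ali35. Its Ali35 arrays lay on both sides of the wild-type range. Tnfrsf11a, which encodes Rank, read 6.37, 11.8, 10.4 and 7.20 in wild type and 26.3, 20.9, 9.03 and 11.6 in Ali35. Only Ali35 replicates 1 and 2 passed 16, and with a floor of 8 in place of 16 its log2 change was 0.72 ± 0.33 (SE, limma, adjusted p = 0.160). Calcr, the calcitonin receptor, had 3 probes that read between -5.09 and 6.23 on the bone arrays.

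**Figure D2:**
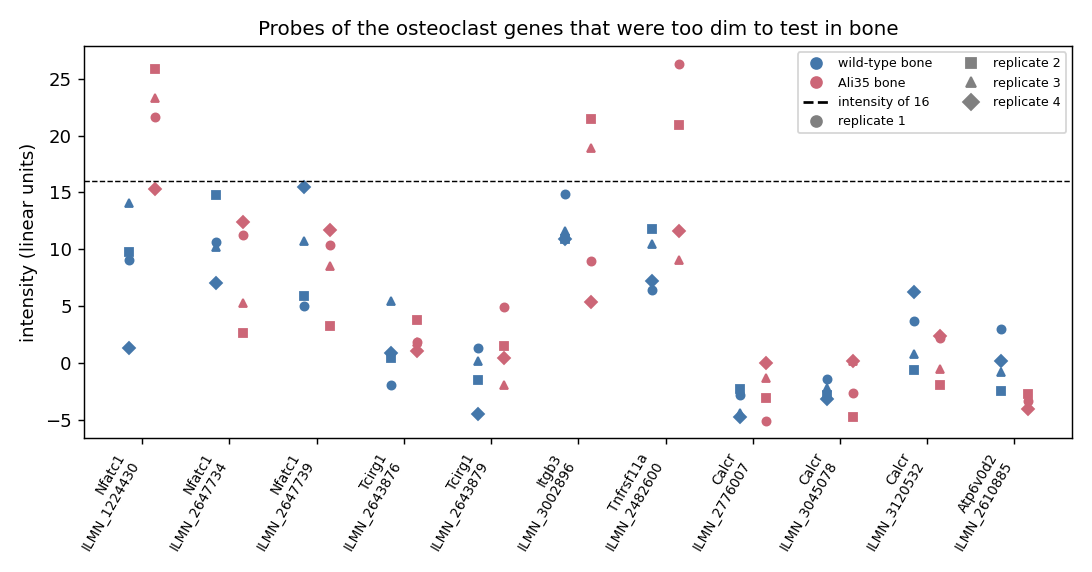
Intensity (linear units) of the 11 member probes too dim to test in bone, 1 point per mouse, with the intensity of 16 as a dashed line. Nfatc1 ILMN_1224430 is the probe here whose 4 Ali35 arrays all lie above its 4 wild-type arrays; 8 of the 11 stay below the line on every array.

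Nfatc1 encodes the calcium-regulated factor that controls terminal osteoclast differentiation and is also active in lymphocytes and endothelium. Its probe ILMN_2648455 read 250, 382, 305 and 214 in wild type and 592, 497, 475 and 487 in Ali35. The groups did not overlap, and Ali35 replicate 1 was the highest array. The mean rose from 288 ± 73.0 to 513 ± 53.5 (SD, n = 4 each), a log2 change of 0.86 ± 0.17 (SE, limma, adjusted p = 0.00858), or 0.79 without Ali35 replicate 1 (adjusted p = 0.0215).

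The probe ILMN_1216522 read 211, 267, 216 and 184 in wild type and 419, 316, 314 and 341 in Ali35. Its log2 change was 0.67 ± 0.14 (SE, limma, adjusted p = 0.0106), with Ali35 replicate 1 again highest. The dimmer probe ILMN_2648704 read 15.7, 24.3, 26.5 and 26.5 in wild type and 49.4, 55.2, 48.4 and 36.01 in Ali35. Its log2 change was 1.03 ± 0.19 (SE, limma, adjusted p = 0.00623), with wild-type replicate 1 raised to the floor. The size of that change depended on how low values were treated: it was 0.55 with a floor of 32 (adjusted p = 0.0119) and 0.69 with no floor and an offset of 16 (adjusted p = 0.00508, limma). None of the 3 probes showed overlap between groups, and all 3 kept their calls without each array in turn.

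These 3 Nfatc1 probes are annotated to the same RefSeq transcript, and the remaining 3 to another transcript of the gene. Of those, ILMN_1224430 read 9.04, 9.74, 14.1 and 1.28 in wild type and 21.6, 25.9, 23.3 and 15.3 in Ali35. Its groups did not overlap, but only 3 arrays reached 16. With a floor of 8 it could be tested, and its log2 change was 1.08 ± 0.21 (SE, limma, adjusted p = 0.0131). ILMN_2647734 and ILMN_2647739 lay between 2.58 and 15.4 on the bone arrays with overlapping groups, and with that floor their log2 changes were -0.13 ± 0.22 and -0.09 ± 0.23 (SE, limma, adjusted p = 0.709 and 0.812). Thus 4 of the 6 Nfatc1 probes were higher in Ali35 with the lower floor, and the 2 that were not are both annotated to the second transcript. With that floor, 1395 of all 14203 tested probes were called higher and 1192 lower, and Clcn7 and Oscar lost their calls.

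The arrays did not rank alike from gene to gene. Across the 9 tested probes, the highest array was Ali35 replicate 1 for 4, Ali35 replicate 2 for 3, Ali35 replicate 4 for 1 and wild-type replicate 1 for 1. Ali35 replicate 3 was the lowest of the 8 arrays for Ctsk and Acp5 and the lowest Ali35 array for Tcirg1 on both probes, for Oscar and for Nfatc1 on ILMN_2648455 and ILMN_1216522.

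Because Ctsk had the smallest SE of the tested member probes, the 4 genes already called higher were also read relative to it on each array. Upward shifts thus followed largely from that choice of genes. This pairing was chosen after the values had been seen, so no test is given, and the difference between probes has meaning only when compared across arrays. The log2 intensity of Nfatc1 minus that of Ctsk lay between -4.61 and -3.59 in wild type and between -3.50 and -3.18 in Ali35, a shift of 0.87. For Tcirg1 the range was -3.54 to -2.68 in wild type and -2.57 to -2.14 in Ali35, a shift of 0.71. The shifts were 0.41 for Clcn7 and 0.54 for Oscar, and for each of the 4 genes all 4 Ali35 arrays lay above all wild-type arrays. The Clcn7 groups nearly touched, at -5.521 for wild-type replicate 2 and -5.518 for Ali35 replicate 2. How many of all probes separate in this way relative to Ctsk was not counted. Ctsk itself changed by -0.01, so the shifts largely repeat the genes' own log2 changes of 0.86, 0.70, 0.40 and 0.53. In its own intensity Oscar overlapped between groups. Relative to Acp5, which varied more, the groups overlapped for all 4 genes, with shifts between 0.35 and 0.81.

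**Figure D3:**
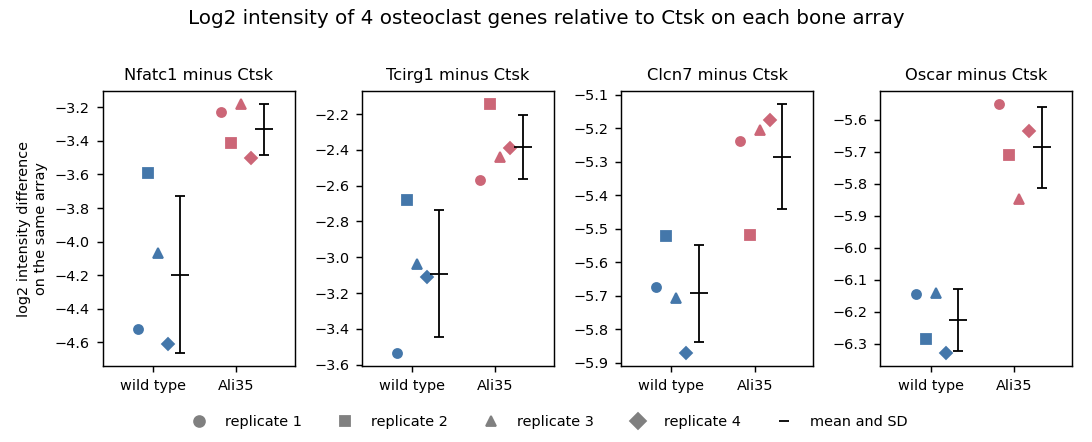
Log2 intensity of Nfatc1, Tcirg1, Clcn7 and Oscar minus that of Ctsk on the same bone array (log2 units, axes not from 0), 1 point per mouse, with mean and SD. All 4 Ali35 arrays lie above all 4 wild-type arrays in each panel, narrowly so for Clcn7. The 4 genes had already been called higher in bone. Oscar overlapped between groups in its own intensity and relative to Acp5.

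Wider lists of genes that work with these members were then counted in bone, each gene by its brightest tested probe. Over all 8700 genes so tested, 24.3% were called, 13.5% higher and 10.7% lower, with a median log2 change of -0.03. Of 19 tested subunits of the proton pump other than the members, 3 rose and 2 fell, and the median log2 change was -0.09. Atp6v0a1, the a1 paralogue of Tcirg1, rose by 1.496 ± 0.178 on the log2 scale (SE, limma, adjusted p = 0.00101), from 336 to 598 over the wild-type arrays to 1161 to 1283 over the Ali35 arrays. Atp6v1g2 and the accessory subunit Atp6ap1 also rose, while Atp6v1g1 fell by 0.61 ± 0.14 (SE, limma, adjusted p = 0.0129). The other subunit that fell was Atp6v1c1, named after its values were seen, at -0.30 ± 0.09 (SE, limma, adjusted p = 0.0389). The calls numbered 3 rather than 5 without wild-type replicate 1, and 3 without wild-type replicate 4: Atp6ap1 lost its call without either (adjusted p up to 0.0578), as did Atp6v1c1, which kept it only without Ali35 replicate 4 (adjusted p up to 0.0945 otherwise, limma).

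Of 12 tested partners of acid secretion, vesicle docking and fusion, 5 rose and 0 fell, with a median log2 change of 0.24. Plekhm1, an adaptor for lysosome positioning whose loss causes osteopetrosis, rose by 0.80 ± 0.13 (SE, limma, adjusted p = 0.00416). Slc4a2, the anion exchanger that balances acid secretion with bicarbonate export, rose by 0.43 ± 0.09 (SE, limma, adjusted p = 0.0111). The proteases Mmp9, Mmp14 and Adam8 rose by 0.76, 0.63 and 0.72, and Adam8, outside the naming rule, was named after its values were seen. Adam8 alone of the 5 lost its call when an array was left out, wild-type replicate 1 or 4 (limma, adjusted p up to 0.0591). The other tested genes of the list were not called and went both ways. Dcstamp stood at 0.53 ± 0.19 (SE, limma, adjusted p = 0.0672). Snx10 stood at -0.35 ± 0.12 (SE, limma, adjusted p = 0.0638) and Ostm1 at -0.27 ± 0.10 (SE, limma, adjusted p = 0.0822). Cd9, Car2, Rab7 and Rab3d stood at -0.30, -0.16, 0.05 and -0.01. These uncalled genes other than Dcstamp were named after their values were seen.

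Of 14 tested genes of Rank ligand and M-CSF signalling, 1 rose and 0 fell, with a median of 0.19. The gene was Rela, a subunit of NF-kB, at 0.60 ± 0.13 (SE, limma, adjusted p = 0.0108), and the M-CSF gene Csf1 stood at 0.65 ± 0.23 without a call (adjusted p = 0.0647). The count was 2 without Ali35 replicate 4 and 2 or 3 under several other settings. Of 10 tested genes of ITAM co-stimulation, the pathway of Oscar, 2 rose and 2 fell, with a median of -0.0028. Those that rose were Inpp5d, a phosphatase that restrains the pathway, at 1.04 ± 0.21 (SE, limma, adjusted p = 0.00849), and Plcg2, the phospholipase upstream of calcium, at 0.57. Those that fell were the ITAM adaptor Tyrobp, at -0.45 ± 0.10 (SE, limma, adjusted p = 0.0122), and the Tyrobp-coupled receptor Sirpb1a, at -1.04. Tyrobp read 1738 to 1940 in wild type and 1244 to 1494 in Ali35, with no overlap. Of the same list, the brightest probes of Syk, Plcg1 and Fcer1g stayed below 16 on every bone array. Fcer1g encodes the Fc receptor gamma chain that Oscar signals through. A dim probe does not show that its gene is silent, since some Tcirg1 probes also stayed at background while others were bright.

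Of 14 tested genes of the calcineurin and Nfat route other than Nfatc1, 6 rose and 0 fell, with a median of 0.33. The calcium channel gene Itpr3 rose by 0.74 ± 0.17 (SE, limma, adjusted p = 0.0125), and the Nfat family genes Nfatc4 and Nfat5 rose by 0.63 and 0.45. The other genes that rose were Dyrk1a, Gsk3b and Gsk3a, at 0.57, 0.50 and 0.74, which encode kinases that send Nfat proteins out of the nucleus. Gsk3a and Gsk3b were named after their values were seen. This count was 2 when wild-type replicate 1 was left out, 3 when wild-type replicate 4 or Ali35 replicate 3 was, and 5 when Ali35 replicate 1 was. Itpr3 and Nfatc4 kept their calls whichever array was left out, and the other 4 did not (limma, adjusted p up to 0.0865).

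Of 13 other transcription factors of osteoclasts and their precursors, 3 rose and 1 fell, with a median of -0.03. Ppargc1b, a coactivator of mitochondrial genes, rose by 1.15 ± 0.24 (SE, limma, adjusted p = 0.00977), Bcl6, a repressor of osteoclast genes, by 0.49, and Tfe3, a relative of Mitf, by 0.49. Id1, an inhibitor of helix-loop-helix factors, fell by 0.63 ± 0.15 (SE, limma, adjusted p = 0.0185). Without wild-type replicate 1 this list had 2 calls rather than 4, since Id1 (limma, adjusted p = 0.0545) and Tfe3 (adjusted p up to 0.0721 over the arrays left out) lost theirs.

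The integrin and podosome list, which covers the sealing ring and its signalling, had 8 of 12 tested genes higher and 0 lower, with a median of 0.49. Actn1, an actin crosslinker, read 1119 to 1453 in wild type and 2147 to 2412 in Ali35, a log2 change of 0.79 ± 0.11 (SE, limma, adjusted p = 0.00196). Wipf1, Vcl and Pxn, which act in actin assembly and adhesion, rose by 0.66, 0.53 and 0.64. The count was 7 without Ali35 replicate 1, and 4 without wild-type replicate 1. The brightest probes of Cbl, Tln1, Gsn and Rhoa of that list stayed below 16 on every bone array, which does not show that these genes are silent.

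**Figure D4:**
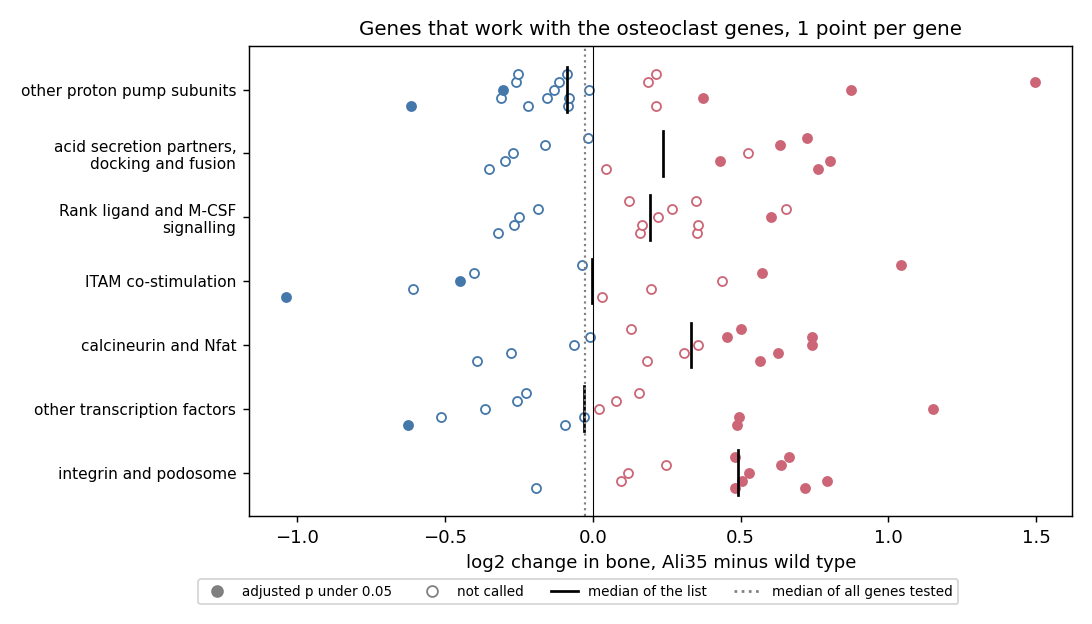
Log2 change in bone (Ali35 minus wild type) of each tested gene in 7 lists around the member genes, 1 point per gene, with filled points for adjusted p under 0.05, a bar at the median of each list and a dotted line at the median of all genes, -0.03. The integrin and podosome list has 8 filled points, all above 0, and the proton pump list has filled points on both sides of 0.

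Marker lists of other cells were counted in the same way, against the 24.3% of all genes called, and their part in the results above was not tested. The called share was 55.6% for cartilage, 36.4% for osteoblasts and osteocytes, 37.5% for platelets and 33.3% for skeletal muscle, and between 0 and 25% for the other lists. Cartilage markers had 5 of 9 tested genes higher, led by Chad, Col2a1 and Acan at 1.71 to 1.97 on the log2 scale and with Comp and Col9a2 beside them, and a summed intensity of 2465 to 4926 in wild type and 9648 to 13558 in Ali35. The brightest probes of Col9a3, Col11a1 and Matn3 of that list stayed below 16 on every bone array. Osteoblast and osteocyte markers had 4 of 11 higher, Sp7, Col1a1, Alpl and Col1a2, with overlapping sums of 44708 to 61472 and 56719 to 80435. Without Ali35 replicate 1, the median log2 change was 0.65 rather than 0.94 for cartilage, with 5 genes still higher. For osteoblasts and osteocytes it was 0.15 rather than 0.23, with 4 genes still higher. Macrophage markers, which share a lineage with osteoclasts, had 1 of 13 higher, Siglec1, and 1 lower, Aif1, and their sums were 55868 to 60914 in wild type and 51201 to 54527 in Ali35. Of 14 neutrophil markers Mpo was higher and Mmp8 lower, and of 8 B lymphocyte markers Cd22 was higher and Cd79b lower. Higher genes were 3 of 8 for platelets (Vwf, Gp5 and Itga2b), 4 of 12 for skeletal muscle (Ryr1, Myh4, Actn3 and Atp2a1) and 2 of 8 for endothelium (Eng and Cdh5), while 1 of 7 fat cell markers was lower (Lep) and 0 of 6 erythroid markers were called. Comp, Col9a2, Col1a2 and Atp2a1 were named after their values were seen.

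In newborn brain, 5 member probes of 4 genes were bright enough to test, and 0 were called (limma). Over all 10922 probes tested there, 3.64% were called. An unadjusted p under 0.05 was found for 2 of the 5 member probes, and for 2574 of all 10922 (limma). Nfatc1 ILMN_2648455 read 13.6, 21.7, 14.4 and 20.3 in wild type and 31.3, 21.8, 24.6 and 25.3 in Ali35, a log2 change of 0.48 ± 0.14 (SE, limma, adjusted p = 0.0840). Tcirg1 ILMN_2954881 read 36.05, 34.1, 29.3 and 30.2 in wild type and 26.0, 27.6, 21.3 and 25.2 in Ali35, a log2 change of -0.38 ± 0.11 (SE, limma, adjusted p = 0.0850). In both the groups did not overlap, as in 15.7% of all probes tested in brain. For Nfatc1 the gap was only that between 21.7 and 21.8. Ctsk, at 30.3 to 44.5 in wild type and 28.4 to 67.8 in Ali35, and Clcn7, at 24.1 to 42.0 and 24.6 to 33.5, overlapped. Of the members, 14 of the 20 probes stayed below 16 on all 8 brain arrays, among them the probes of Acp5, Oscar, Itgb3, Tnfrsf11a, Calcr and Atp6v0d2.

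Bone and brain arrays were normalized separately, so levels are not compared between tissues, but the genotype difference of bone less that of brain was tested over all 16 arrays. Of the 5 member probes tested, 2 were called, against 24.4% of 9225 probes. Tcirg1 ILMN_2954881 differed by 1.08 ± 0.19 (SE, limma interaction, adjusted p = 0.00123), higher in all 4 Ali35 arrays in bone and lower in all 4 in brain. Nfatc1 ILMN_1216522 differed by 0.63 ± 0.20 (SE, limma interaction, adjusted p = 0.0276), with a brain change of 0.03 ± 0.13. That call was lost without wild-type bone replicate 4, Ali35 bone replicate 1, wild-type brain replicate 3 or Ali35 brain replicate 2 or 4 (adjusted p up to 0.0617). Clcn7 differed by 0.63 ± 0.23 and was not called (SE, limma interaction, adjusted p = 0.0556). Without wild-type brain replicate 3, whose Clcn7 intensity of 24.1 lay apart from 39.7 to 42.0 on the other wild-type brain arrays, the difference was 0.82 and was called (limma interaction, adjusted p = 0.00578), and the brain change was -0.42 rather than -0.23 (limma, adjusted p = 0.113). The difference was also called without Ali35 bone replicate 2 (adjusted p = 0.0463), with a floor of 32 (0.00639), with no floor and an offset of 16 (0.0352) and with a filter on a mean of 32 (0.0460). Nfatc1 ILMN_2648455, at 0.38 ± 0.23 (adjusted p = 0.242), and Ctsk, at -0.13 ± 0.29 (adjusted p = 0.776), were not called by the same limma interaction.

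**Figure D5:**
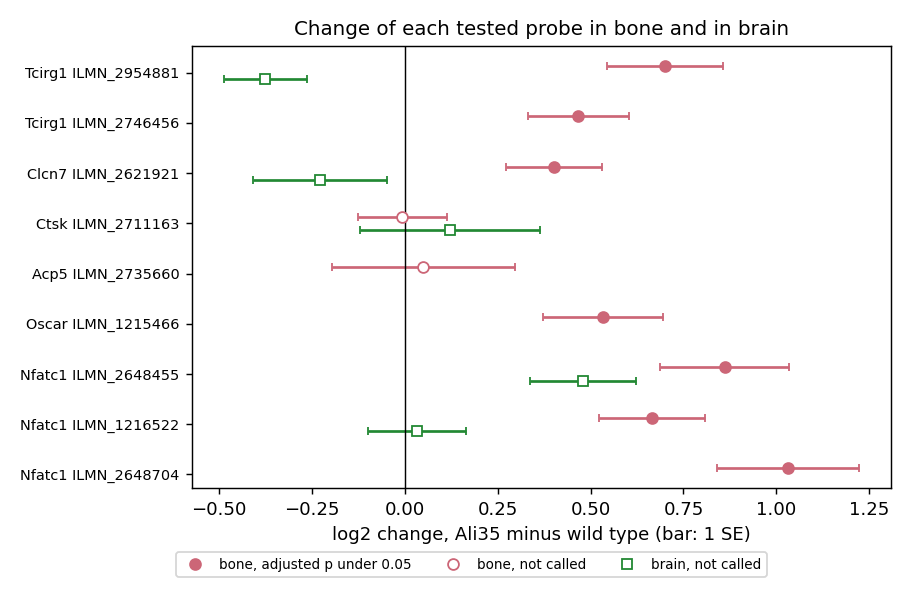
Log2 change (Ali35 minus wild type, bars of 1 SE) of each tested member probe in bone (circles, filled where adjusted p is under 0.05) and in brain (squares, none called). Tcirg1 ILMN_2954881 stands at 0.70 in bone and -0.38 in brain.

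Genes with the most similar course over the 8 bone arrays were found by the root mean square difference between mean-centred log2 values, among probes tested in bone. Nearest to Ctsk were Lxn, B3gat3 and Naxe, at 0.06 to 0.07, with log2 changes between -0.07 and -0.04. Nearest to Tcirg1 ILMN_2954881 were Itpr3, at 0.07, Sema4a, at 0.08, and Slc17a9, at 0.11, with log2 changes between 0.58 and 0.78. Nearest to Nfatc1 ILMN_2648455 were Tcof1, at 0.07, Upf1, at 0.10, and Plekhm1, at 0.10, with log2 changes between 0.80 and 0.97. Plekhm1 and Itpr3 are also in the lists above. The measure includes the difference between genotypes as well as the variation among mice, and Tnfrsf11a was too dim to be matched.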

How the data were processed

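Bead-array data from 16 mice were used. The deposited values were linear intensity values per probe, produced with GenomeStudio 2011.1 per the submitters' processing notes. Values below 0 and nearly equal quartiles within a tissue showed background subtraction and normalization by the authors within each tissue; the sources used here do not give the method. A non-normalized table was not used, because the names of its 32 per-sample columns match no label. The normalization planned for it was therefore replaced by the stated fallback, the deposited values. Probe names came from the platform annotation (23978 probes with 1 symbol, 1719 with none).

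Values were floored at 16 and log2-transformed. Testing in a tissue required an intensity of 16 on 4 or more of its 8 arrays. Fits used limma 3.58.1 (lmFit and eBayes, 6 residual degrees of freedom per tissue) in R 4.3.3, two-sided, adjusted by Benjamini-Hochberg over all tested probes and called under 0.05. The difference between tissues was an interaction term over 16 arrays. The code was tested on simulated data. Errors are limma's SE for log2 changes and SD for intensities, and the number of mice limits the precision. Separate mouse identifiers in the labels made each array 1 animal.

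The member genes, lists and floor were chosen with earlier results of these data known. All member probes were named, with up to 4 genes of lowest p per pathway list, up to 3 per marker list and the 3 genes nearest to Ctsk, Tcirg1 and Nfatc1. Alternatives covered normalization, floor, filter, variance model, threshold, replicate block and leaving out each array. Promoters came from a RefSeq table (GRCm38.p6), with 7 of the 10 genes matched. Python 3.11.15, pandas 2.3.3 and matplotlib 3.10.9 were used for tables and figures.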

Additional observations from a re-analysis of the deposited data

Results flagged for a closer look

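Clcn7 in wild-type brain replicate 3 lay far from its group, at an intensity of 24.1 against 39.7 to 42.0 on the other arrays. It was the only such array in the 28 groups of 4 examined. The 28 groups share arrays and include several probes of the same gene, so they are not independent. Whether chance alone gives 1 such flag among 28 was not tested. The change of Tcirg1 ILMN_2954881 differed between tissues by 1.08 on the log2 scale (limma interaction, adjusted p = 0.00123), higher in 4 of 4 Ali35 arrays in bone and lower in 4 of 4 in brain. The change of Nfatc1 ILMN_1216522 differed by 0.63 (limma interaction, adjusted p = 0.0276), with all 4 Ali35 arrays above wild type in bone and overlapping groups in brain. Age changed together with tissue in both comparisons.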

How the results depend on the processing

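The 7 member calls in bone became 1 with no filter on dim probes, where 25697 probes were adjusted together, 4 with the brightest probe of each gene, where 6 probes were tested, and 2 at an adjusted p under 0.01; leaving out each array gave 4 to 7. The 0 calls in brain stayed 0 under every alternative run. The 2 calls for the difference between tissues became 1 with a floor of 32 or a filter on a mean of 32; there the Tcirg1 and Nfatc1 probes were too dim to test, and the 1 call was Clcn7. The count was 1 with the brightest probe (Tcirg1), 1 at an adjusted p under 0.01 (Tcirg1), and 1 to 3 when each array was left out. A fit with the replicate number as a block gave 5 calls in bone, 0 in brain and 2 for the difference. The numbers were not taken as pairs, since deviations of same-numbered arrays correlated at only 0.16, 0.02, -0.01 and -0.12 in bone and 0.01, 0.14, 0.09 and 0.13 in brain, and not every array correlated best with its own number. Changes near 0 turned sign when single arrays were left out. Ctsk in bone ranged from -0.061 to 0.078 and Acp5 in bone from -0.11 to 0.25, with Acp5 at -0.12 under array weights. In brain, Nfatc1 ILMN_1216522 ranged from -0.058 to 0.11 and Ctsk from -0.12 to 0.30, and the difference between tissues for Ctsk ranged from -0.31 to 0.11. The cause of these turns was not tested. With no filter, calls numbered 0 for the calcineurin and Nfat list, 4 for the integrin and podosome list and 3 for the partners of acid secretion. When single arrays were left out, the 2 calls of macrophage and of B lymphocyte markers became 1 to 3, those of neutrophil markers 1 to 2 and the 4 of muscle markers 2 to 4, and 1 erythroid marker was called without Ali35 replicate 1. Over all bone probes, 3006 calls became 1430 with no filter, 1759 without wild-type replicate 1 and 1634 without wild-type replicate 4. They became 2335 with the replicate block and 2389 of 9403 with the brightest probe of each gene. Signal over background limits the dim receptor genes, which could not be tested at the floor of 16.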
